A study of Mus musculus with 12 samples.

Results

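The TGF-beta and BMP ligands, their receptors and the latent TGF-beta binding proteins were examined in the gastrocnemius, the main calf muscle, of mini-muscle and regular-muscle mice. The genes were taken by symbol from the annotation of the Affymetrix array: names beginning with Tgfb, Ltbp, Bmp followed by a digit or r, or Gdf followed by a digit, together with Eng and Acvrl1. The rule found 35 genes among the 18194 genes that had a probe set of their own. They were read by 77 probe sets, and the brightest of a gene's probe sets over all arrays stood for the gene. Gdf1 shares its probe set with another gene and was left out by that rule.

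The 6 mini-muscle arrays came from male mice of line 3, and the 6 regular-muscle arrays from male mice of line 8. Both lines had been selectively bred for high voluntary wheel running, and the animals belonged to generation 37 with a mean age of 84 days (79 to 86 days). The mini-muscle phenotype is an inherited reduction of hindlimb muscle mass. Each array held a different animal. Both limbs of a mini-muscle animal went into its RNA, and only the left or the right limb of a regular-muscle animal. Phenotype, line and pooling divide the arrays in the same way and cannot be told apart, and no arrays of unselected control lines were analysed here.

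TGF-betas and BMPs are secreted dimers that bring together type I and type II serine/threonine kinase receptors, which then phosphorylate SMAD transcription factors. TGF-betas are secreted in a latent form, held in the matrix by latent TGF-beta binding proteins, and are set free by integrins and proteases. In skeletal muscle, TGF-beta signalling is known for driving matrix deposition by fibroblasts and for restraining myoblast differentiation, whereas BMP signalling is known for maintaining muscle mass.

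Of the 35 genes, 22 could be tested, and 2 of them were higher and 3 were lower in mini-muscle. This was 22.7% of the 22, near the 26.7% of all genes tested that passed the same threshold (14.9% higher and 11.8% lower). Ltbp1, a latent TGF-beta binding protein, and Tgfb3, a ligand, were higher. Tgfbr3, which encodes the co-receptor betaglycan, Bmpr1a, a type I BMP receptor, and Bmp2k, a kinase named for its induction by BMP2, were lower. The call of Bmpr1a rested on its brightest probe set. That of Tgfbr3 was lost when its probe sets were averaged. That of Bmp2k was lost in 11 of 20 alternative analyses. All levels are log2 of MAS5 intensity, with n = 6 arrays per group throughout. A difference is the mini-muscle mean less the regular-muscle mean, so a positive value is higher in mini-muscle. Group means were compared with limma over the 9097 genes whose mean reached the median of all gene means (log2 8.56, called the dim limit below), and calls were made where the p adjusted by Benjamini and Hochberg's method lay under 0.05. The adjusted p-values are those of this limma fit unless another is named.

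Of the 35 genes, 22 were above the dim limit and could be tested, and 5 of these 22 (22.7%) were called. Over all 9097 genes the same threshold called 26.7%, with 14.9% higher and 11.8% lower in mini-muscle. The share of called genes in the family was therefore near that of the array as a whole. The median difference of the 22 genes was -0.02, against 0.03 over all genes tested, and 10 differences were above 0 and 12 below. The median absolute difference was 0.13 in the family and 0.22 over all genes tested. For 3 of the 22 genes the 2 groups of arrays did not overlap (13.6%), with 1 lying above and 2 below in mini-muscle. Over all genes tested 13.0% did not overlap, 6.86% above and 6.11% below.

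Ltbp1 had the largest difference of the tested members, and RefSeq gives it 2 annotated starts. The transcripts from these starts are known to encode a long and a short form of the protein. The stretches of 150 bases just before both starts are shown because it was not examined which of these transcripts the chosen probe set reads. The stretch before the start of Bmpr1a, a receptor called lower at its brightest probe set only, is set beside them. Capitals mark CAGAC or its reverse complement GTCTG, the core of the CAGA box that SMAD3 and SMAD4 are known to bind. The sequences are from RefSeq (GRCm38.p6), 5′ to 3′ on the strand of the gene.
Ltbp1, upstream start, chr17:75005379-75005528, plus strand: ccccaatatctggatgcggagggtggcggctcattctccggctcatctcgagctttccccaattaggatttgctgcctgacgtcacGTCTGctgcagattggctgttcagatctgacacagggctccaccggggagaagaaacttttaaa
Ltbp1, downstream start, chr17:75178631-75178780, plus strand: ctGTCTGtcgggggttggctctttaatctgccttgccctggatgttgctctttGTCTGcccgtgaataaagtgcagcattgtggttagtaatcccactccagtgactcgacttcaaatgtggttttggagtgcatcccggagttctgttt
Bmpr1a, chr14:34502547-34502696, minus strand: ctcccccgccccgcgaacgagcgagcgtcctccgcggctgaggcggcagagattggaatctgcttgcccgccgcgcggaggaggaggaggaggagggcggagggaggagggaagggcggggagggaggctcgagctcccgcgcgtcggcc

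The motif occurred 1 time before the upstream start of Ltbp1, 2 times before its downstream start and 0 times before the start of Bmpr1a, on either strand. Of 32851 promoter windows of the same length in the table, 27.7% held it. The GC content of these windows was 54.0% and 49.3% for the Ltbp1 starts and 75.3% for Bmpr1a, against a median of 54.0% over all windows. The GC-rich motif GGCGCC, also searched for as a BMP-responsive SMAD element, occurred 0 times in the 3 windows and in 7.0% of all windows. These are matches of letters and were not tested against the expression values. Of the other called members, Bmp2k had a window in the table and was not printed, and Tgfb3 and Tgfbr3 are named only.

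Among the ligands, Tgfb3 was higher in mini-muscle. It lay between 10.64 and 11.08 (median 10.93) on mini-muscle arrays and between 10.21 and 10.81 (median 10.46) on regular-muscle arrays. The groups overlapped, since 2 mini-muscle arrays lay below the highest regular-muscle array. The difference was 0.39 (SE 0.12, 1.31-fold, adjusted p = 0.019). TGF-beta 3 is the isoform known for its roles in palate closure and in wound repair with little scarring.

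Tgfb2, the isoform known for its part in heart and skeletal development, lay between 9.32 and 10.43 (median 10.11) in mini-muscle and between 9.56 and 10.38 (median 9.88) in regular muscle. The mini-muscle range held the whole regular-muscle range, and the difference of 0.12 did not pass (SE 0.17, adjusted p = 0.66). A further 3 probe sets of Tgfb2 above the dim limit gave 0.38, 0.16 and 0.16, none of them called over all single-gene probe sets. Whether Tgfb3 and Tgfb2 differ in their response was not tested.

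Tgfb1, the isoform best known in fibrosis and immune regulation, was below the dim limit and outside the main test. Its values were 8.35 to 9.08 (median 8.65) on mini-muscle arrays and 4.68 to 9.10 (median 8.55) on regular-muscle arrays. Regular-muscle replicates 3 and 5, at 4.68 and 7.29, lay below all other arrays. Without the dim filter the difference was 0.86 (SE 0.55, adjusted p = 0.41), and its second probe set gave 0.075.

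Of the 9 BMP ligands, 3 were above the dim limit and 0 were called by limma, nor did any reach an unadjusted p under 0.05. Bmp4, a ligand of developing limb and vessel, differed by -0.24 (adjusted p = 0.47). It lay between 8.53 and 8.93 in mini-muscle, and at 9.08 to 9.40 on 5 regular-muscle arrays with regular-muscle replicate 6 at 8.04. Without that array the difference was -0.43 (adjusted p = 0.073). Bmp5, known for skeletal patterning, differed by 0.065 (adjusted p = 0.82) and Bmp6, known for iron regulation through hepcidin, by less than 0.01 (SE 0.16, adjusted p = 0.999). The intervals of these 3 differences (95%) reached from -0.70 to 0.22, -0.29 to 0.42 and -0.34 to 0.34.

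Of the 6 GDF ligands, Gdf9, an oocyte factor, and Gdf11, which patterns the axial skeleton, were above the dim limit. Gdf9 differed by 0.11 (95% interval -0.53 to 0.74, adjusted p = 0.83) and Gdf11 by -0.17 (95% interval -0.70 to 0.35, adjusted p = 0.67). Gdf11 entered the test through its regular-muscle mean of 8.68, since its mini-muscle mean of 8.51 was below the dim limit. Gdf9 spanned 8.27 to 9.93 in mini-muscle and 8.01 to 9.58 in regular muscle, so the regular-muscle range reached lower and the mini-muscle range higher.

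The other ligands were dim. Bmp2, Bmp7, Bmp8a, Bmp8b, Bmp10, Bmp15, Gdf2, Gdf3, Gdf5 and Gdf10 had means between 5.59 and 8.00, and single arrays of the 13 dim members ranged from 3.48 to 9.35. Without the dim filter 0 of these 13 members were called by limma, and 0 reached an unadjusted p under 0.05, where 12.1% of 18194 genes were called (6.76% higher and 5.33% lower). Gdf10, which encodes BMP3b, lay between 6.04 and 8.52 in mini-muscle and between 8.08 and 8.92 in regular muscle (difference -0.80, SE 0.39, adjusted p = 0.24). Gdf5, a joint and tendon factor known for sparing denervated muscle, lay between 4.65 and 8.24 in mini-muscle, where replicates 1, 5 and 6 were above 7, and between 4.10 and 5.58 in regular muscle (1.41, SE 0.69, adjusted p = 0.24). Bmp2, an osteogenic ligand, averaged 6.19 in mini-muscle and 7.10 in regular muscle (adjusted p = 0.32). For these dim genes no change was detectable with 6 arrays a group.

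**Figure D1:**
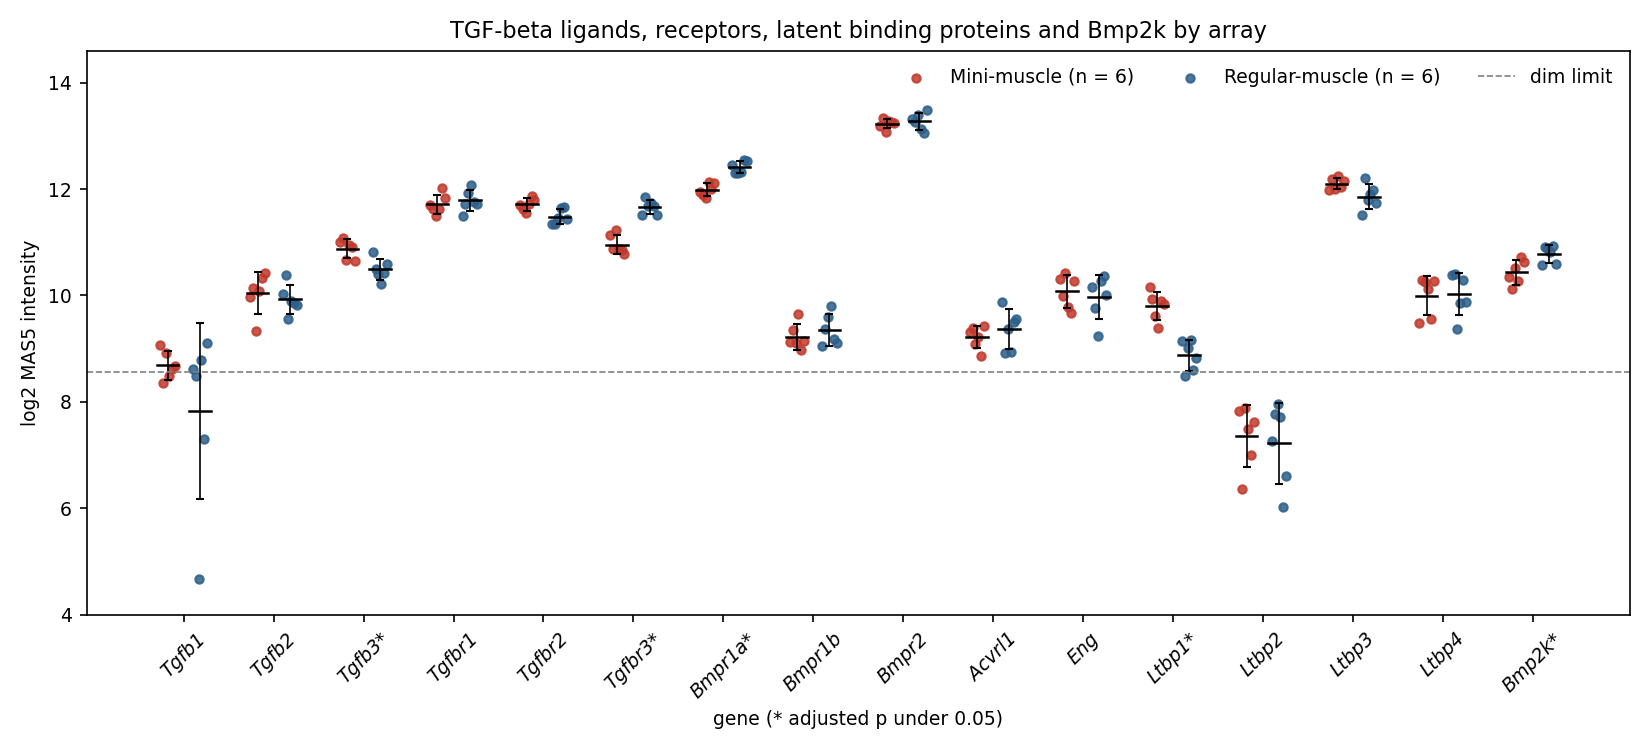
Log2 MAS5 intensity (vertical axis) of 16 genes on each array, mini-muscle in red left of regular-muscle in blue, with bars for the mean and SD of 6 arrays and a dashed line at the dim limit of 8.56. Ltbp1 lies higher and Tgfbr3 and Bmpr1a lower on every mini-muscle array than on any regular-muscle array, and Tgfb1 has a regular-muscle array at 4.68.

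All 8 receptors and co-receptors were above the dim limit, and 2 of them were lower in mini-muscle. That was 25% of them, where 26.7% of all genes tested were called in either direction and 11.8% were called lower. Tgfbr3, betaglycan, presents TGF-beta to the signalling receptors and also binds inhibin. It lay between 10.77 and 11.23 (median 10.87) on mini-muscle arrays and between 11.50 and 11.85 (median 11.69) on regular-muscle arrays. The groups did not overlap. The difference was -0.71 (SE 0.10, 1.63-fold lower, adjusted p = 4.8e-05). A second, dimmer probe set of Tgfbr3 with a mean of 8.52 differed by -0.098 (SE 0.30), and with the mean of both the difference was -0.40 (adjusted p = 0.083).

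Bmpr1a encodes ALK3, a type I receptor of BMP2 and BMP4. It lay between 11.83 and 12.13 (median 11.98) in mini-muscle and between 12.30 and 12.55 (median 12.39) in regular muscle, again with no overlap. The difference was -0.42 (SE 0.08, 1.34-fold lower, adjusted p = 9.3e-04). Of the remaining probe sets of Bmpr1a, 4 were above the dim limit, and they lay on both sides of 0. They gave -0.18, 0.34, 0.23 and -0.34, and none was called over all single-gene probe sets. With the mean of its 6 probe sets the difference was 0.053 (adjusted p = 0.89), so the call rests on the brightest probe set.

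The signalling receptors of TGF-beta itself did not pass. Tgfbr1 (ALK5), the type I receptor, lay between 11.49 and 12.02 (median 11.66) in mini-muscle and between 11.50 and 12.08 (median 11.74) in regular muscle. The ranges nearly coincided, with a difference of -0.075 (SE 0.11, adjusted p = 0.67). Tgfbr2, the type II receptor that binds TGF-beta first, lay between 11.54 and 11.87 (median 11.71) in mini-muscle and between 11.34 and 11.67 (median 11.45) in regular muscle. Its mini-muscle values stood mostly above the regular-muscle values, with a difference of 0.23 (SE 0.09, 95% interval 0.04 to 0.42) that missed the threshold (adjusted p = 0.072). Without mini-muscle replicate 3, regular-muscle replicate 4 or regular-muscle replicate 5 it passed (adjusted p = 0.045, 0.049 and 0.046).

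Bmpr2, the type II BMP receptor, lay between 13.07 and 13.33 (median 13.26) in mini-muscle and between 13.06 and 13.49 (median 13.29) in regular muscle. The mini-muscle range fell inside the regular-muscle range, and the difference was -0.043 (SE 0.08, 95% interval -0.21 to 0.13, adjusted p = 0.75). A dimmer probe set of it gave 0.37. Bmpr1b, the type I receptor known for cartilage condensation, lay between 8.97 and 9.66 (median 9.13) in mini-muscle and between 9.05 and 9.80 (median 9.27) in regular muscle. It overlapped over nearly its whole range (-0.12, SE 0.17, adjusted p = 0.66).

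Acvrl1 and Eng encode ALK1 and endoglin, the receptor pair of endothelial cells that answers to BMP9 and BMP10 and is mutated in hereditary haemorrhagic telangiectasia. Acvrl1 lay between 8.86 and 9.42 (median 9.27) in mini-muscle and between 8.92 and 9.88 (median 9.44) in regular muscle, with a difference of -0.15 (SE 0.18, adjusted p = 0.61). Eng lay between 9.67 and 10.43 (median 10.13) in mini-muscle and between 9.24 and 10.36 (median 10.08) in regular muscle, with a difference of 0.11 (SE 0.18, adjusted p = 0.73). Both overlapped broadly, and the second probe set of Eng gave 0.11. The second probe set of Acvrl1, below the dim limit at a mean of 7.49, went the other way (0.59, SE 0.40). Of 9 tested endothelial markers 1 was higher, Pecam1 (0.50, adjusted p = 0.044, lost without any of 9 of the 12 arrays), and 0 were lower, with a median of 0.08. Their summed intensity was 10500 to 14700 in mini-muscle and 9070 to 13800 in regular muscle.

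Of the 4 latent TGF-beta binding proteins, Ltbp1 was 1.90-fold higher in mini-muscle. LTBP1 is disulphide-linked to the TGF-beta propeptide and anchors the latent complex in fibrillin and fibronectin matrix. Its level lay between 9.39 and 10.16 (median 9.86) on mini-muscle arrays and between 8.49 and 9.16 (median 8.92) on regular-muscle arrays, without overlap. The difference was 0.93 (SE 0.17, 95% interval 0.57 to 1.29, adjusted p = 5.4e-04). Both other probe sets of Ltbp1 were dim, with means of 5.50 and 4.55, and gave 0.62 and 1.61 without being called.

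Ltbp3, which assists the secretion of TGF-beta and is known from bone and tooth, lay between 11.98 and 12.25 (median 12.10) in mini-muscle and between 11.51 and 12.20 (median 11.85) in regular muscle. The mini-muscle arrays lay within the upper part of the regular-muscle range and slightly above it. The difference was 0.24 (SE 0.10, 95% interval 0.03 to 0.46) and missed the threshold (adjusted p = 0.094). It passed without regular-muscle replicate 2 (0.31, adjusted p = 0.029), and the second probe set of Ltbp3 above the dim limit gave 0.33 (adjusted p = 0.11 over all single-gene probe sets).

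Ltbp4, a binding protein of latent TGF-beta 1 that also assembles elastic fibres, is known as a modifier of muscular dystrophy in mice. It lay between 9.49 and 10.28 (median 10.19) in mini-muscle and between 9.38 and 10.40 (median 10.09) in regular muscle. The ranges overlapped almost fully, and the difference was -0.035 (SE 0.19, 95% interval -0.44 to 0.37, adjusted p = 0.92). Ltbp2, a family member that does not bind latent TGF-beta, was dim, at 6.36 to 7.89 (median 7.55) in mini-muscle and 6.03 to 7.95 (median 7.49) in regular muscle. Without the dim filter it differed by 0.14 (adjusted p = 0.91), and its groups overlapped.

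**Figure D2:**
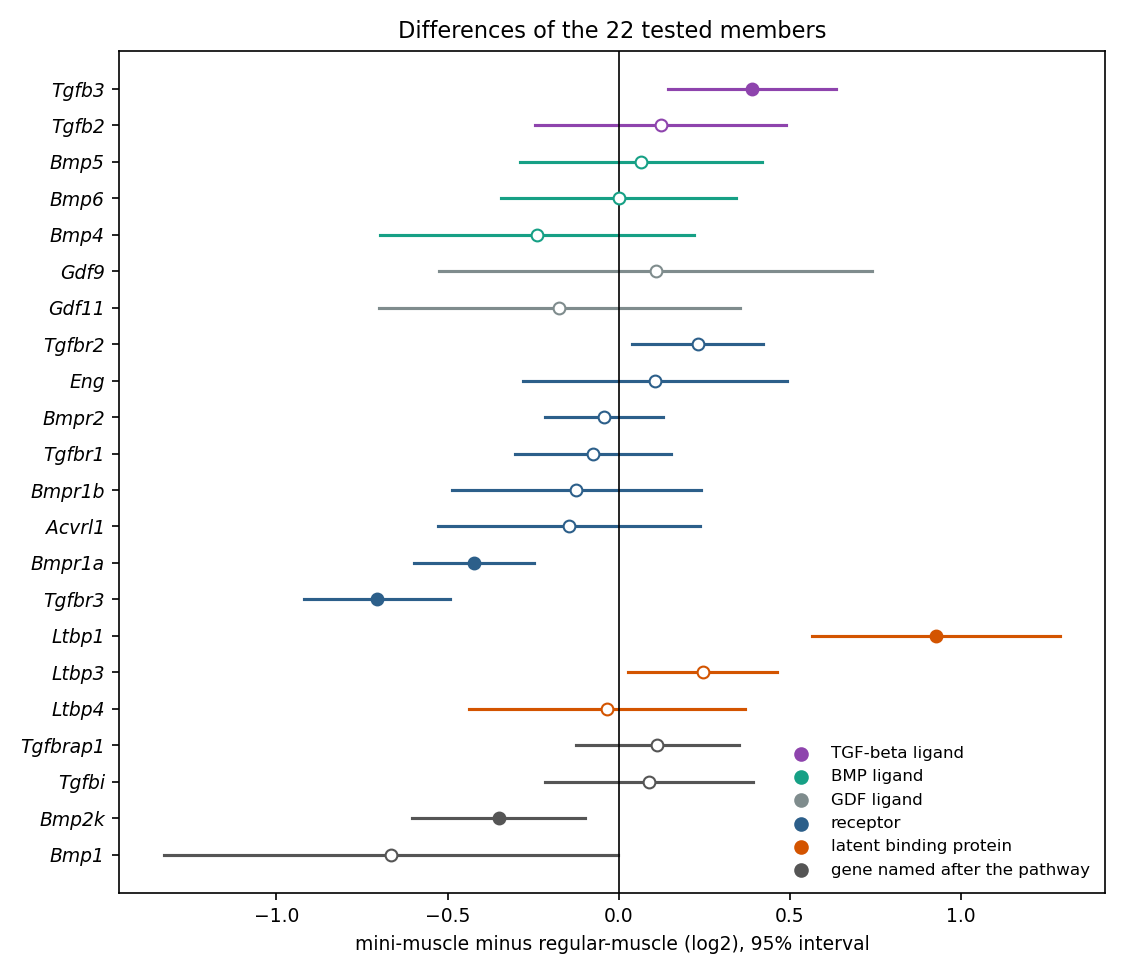
Difference between mini-muscle and regular-muscle arrays on the log2 scale (horizontal axis) with its 95% interval from limma for each of the 22 tested members, coloured by class, filled where the adjusted p was under 0.05. Ltbp1 (0.93) and Tgfb3 (0.39) stand to the right of 0 and Tgfbr3 (-0.71), Bmpr1a (-0.42) and Bmp2k (-0.35) to the left, while most other intervals hold 0.

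The remaining 5 genes carry the pathway's name without being ligands or receptors. Bmp2k encodes a kinase of the clathrin adaptor-kinase family. It lay between 10.12 and 10.72 (median 10.43) in mini-muscle and between 10.57 and 10.93 (median 10.85) in regular muscle. The groups overlapped, with mini-muscle replicates 5 and 6 inside the regular-muscle range. The difference was -0.35 (SE 0.12, 1.28-fold lower, adjusted p = 0.037). Both dimmer probe sets of it lay just below the dim limit and gave -0.37 and -0.44. The call was lost without any of 7 of the 12 arrays (adjusted p up to 0.089) and in 4 of the other 8 alternatives, such as no dim filter (adjusted p = 0.065) and centring on array medians (adjusted p = 0.15).

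Bmp1 is not a BMP but the procollagen C-proteinase, which trims fibrillar collagens and also cleaves LTBP1. It averaged 8.33 in mini-muscle, below the dim limit, and 8.99 in regular muscle, and entered the test only through the regular-muscle group. Its difference of -0.66 (SE 0.32) did not pass (adjusted p = 0.13). Mini-muscle replicates 1 and 5, at 7.81 and 6.84, lay below all other arrays, and without replicate 5 the difference was -0.37.

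Tgfbi, a secreted matrix protein induced by TGF-beta, gave different answers at its 4 probe sets. The brightest averaged 10.17 ± 0.31 on mini-muscle arrays and 10.09 ± 0.18 on regular-muscle arrays (SD), a difference of 0.089 (SE 0.14, adjusted p = 0.71). The next averaged 9.65 ± 0.35 in mini-muscle and 10.45 ± 0.31 in regular muscle, a difference of -0.80 (SE 0.17, adjusted p = 0.0052 over all single-gene probe sets). The third gave -0.69 (adjusted p = 0.10) and the fourth -0.95 (adjusted p = 0.029). With the mean of the 4, Tgfbi was lower in mini-muscle by the test (-0.59, adjusted p = 0.025). The brightest probe set is of the _x class, which can match several transcripts, and so is the third. The second is of the _s class, which can also match several, and the fourth carries neither mark.

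Tgfbrap1, a protein that associates with the TGF-beta receptors and acts in vesicle tethering, differed by 0.11 (SE 0.11, adjusted p = 0.52), and by 0.056 at its second probe set above the dim limit. Tgfb1i1, the LIM adaptor Hic-5, was dim at a mean of 8.47, with mini-muscle replicate 5 at 5.29 and regular-muscle arrays between 8.44 and 9.04. Its difference without the dim filter was -0.67 (SE 0.51, adjusted p = 0.51).

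**Figure D3:**
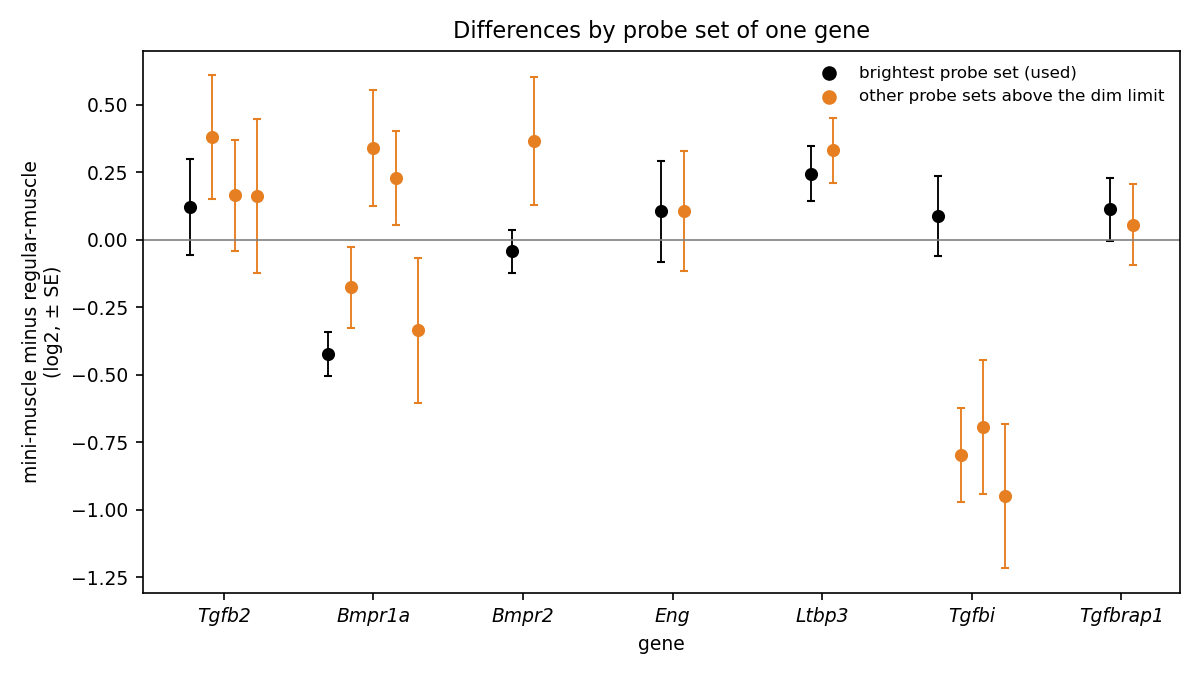
Difference between mini-muscle and regular-muscle arrays (log2, bars show the SE) for the 7 members with more than 1 probe set above the dim limit, the brightest probe set in black and the others in orange. The probe sets of Tgfb2, Eng, Ltbp3 and Tgfbrap1 share a direction, whereas those of Bmpr1a and Bmpr2 fall on both sides of 0 and the brightest of Tgfbi stands apart from its 3 others.

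The genes around these members were followed through 8 lists of pathway genes. Of their 107 distinct genes with a probe set of their own, 70 were tested, and 6 were higher and 18 lower in mini-muscle (34.3% called, with a median difference of -0.11). Over all genes tested 26.7% were called, 14.9% higher and 11.8% lower. Counts below are of the tested genes of each list, and 4 genes stood in more than 1 list. The share called was 16.7% of activin receptors and ligands, 20% of co-receptors and decoys and 23.5% of SMADs and their regulators. It was 36.4% in the non-SMAD branch, 44.4% of latent complex genes, 50% of antagonists, 53.3% of TGF-beta targets and 12.5% of BMP targets. These counts and shares include genes that entered the test through 1 group only, such as Mmp14 and Junb.

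The activin receptor Acvr2a, a type II receptor that activins and BMPs share, was lower in mini-muscle (-0.80, SE 0.10, adjusted p = 1.7e-05, groups not overlapping). It was the 1 called gene among 6 tested activin receptors and ligands, whose median was -0.19. Of 5 co-receptors and decoys, 1 was lower, Amhr2, the type II receptor of anti-Müllerian hormone (-0.59, adjusted p = 0.0014), and the median was -0.16.

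Of 17 SMADs and SMAD regulators, 4 were lower, 0 higher and 13 did not pass, with a median of -0.10. Their share called, 23.5%, was below the 26.7% of all genes tested that were called in either direction. All of the list's calls were lower, and 11.8% of all genes tested were called lower. Smad3, which carries the TGF-beta and activin signal, was lower (-0.54, SE 0.11, adjusted p = 9.3e-04). Smad4, the partner SMAD of both branches, differed by -0.35 (adjusted p = 0.0077), and Ppm1a, a phosphatase reported to act on SMAD2 and SMAD3, by -0.33 (adjusted p = 0.0056). The arrays of the groups did not overlap for these 3 genes, nor for 13.0% of all genes tested. With arrays centred on their medians Smad4 and Ppm1a lost the call (adjusted p = 0.088 and 0.074). With the mean of all probe sets Smad3 and Ppm1a lost it (adjusted p = 0.18 and 0.54). Pmepa1, a feedback inhibitor induced by TGF-beta, differed by -0.97 (adjusted p = 0.0030).

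In the list of non-SMAD signalling, which holds the kinase TAK1 and its adaptors among other genes, 3 of 11 genes were lower and 1 was higher, with a median of 0.08. Tab2, an adaptor of TAK1, was lower (-0.92, SE 0.09, adjusted p = 8.4e-07). Fkbp1a, the FK506-binding protein that sits on type I receptors and on the muscle ryanodine receptor, differed by -0.38 (adjusted p = 5.4e-04, but 0.43 with the mean of all probe sets). Map3k7, TAK1 itself, differed by -0.38 (adjusted p = 0.028) and its activator Tab1 by 0.53 (adjusted p = 0.026). The last pair lost the call without any of several arrays (4 of 12 for Map3k7 and 6 of 12 for Tab1) and changed direction with the mean of all probe sets (0.087 and -0.18).

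Genes that hold or release latent TGF-beta moved both ways. Of 9 tested, 2 were higher and 2 lower, with a median of -0.06. Itgav, the integrin alpha-v chain of the receptors that pull TGF-beta free, was 0.86 higher (SE 0.11, adjusted p = 8.7e-06), and Plat, tissue plasminogen activator, was 0.87 higher (adjusted p = 9.2e-04). Dcn, decorin, a proteoglycan that binds TGF-beta, differed by -0.85 (adjusted p = 2.8e-04) and the membrane metalloprotease Mmp14 by -1.20 (adjusted p = 0.0084). Mmp14 averaged 8.05 in mini-muscle, below the dim limit, and 9.25 in regular muscle, so it was tested only through the regular-muscle group and had to differ. With the mean of all probe sets the calls of Itgav, Plat and Dcn were lost (adjusted p = 0.32, 0.31 and 0.77). Of 4 tested antagonists, Htra1, a secreted protease reported to inhibit TGF-beta family signalling, was lower (-1.12, SE 0.13, adjusted p = 5.8e-06) and Dand5, a nodal antagonist of early development, was higher (0.64, adjusted p = 0.039, lost without any of 7 of the 12 arrays), with a median of -0.11.

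Among textbook TGF-beta target genes, 7 of 15 were lower and 1 was higher, with a median of -0.41. The collagen chains Col1a1 (-1.42), Col1a2 (-1.04) and Col3a1 (-0.71) fell with adjusted p between 1.4e-05 and 4.6e-04, and Junb, an immediate early transcription factor, was 2.0 higher (SE 0.40, adjusted p = 0.0011) with a regular-muscle mean of 8.01, below the dim limit, so that it was tested only through the mini-muscle group. Col1a2 lost its call with the mean of all probe sets (adjusted p = 0.43). Of these 15 genes 3 also stand in a list of cell type markers. Among BMP target genes, 1 of 8 was higher and 0 lower, with a median of 0.13. The called gene was Id4 (0.72, adjusted p = 0.034, lost without any of 5 of the 12 arrays). Id1 and Id3, the best known BMP targets, chosen after their values were seen, differed by 0.16 (adjusted p = 0.55) and 0.091 (adjusted p = 0.73).

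**Figure D4:**
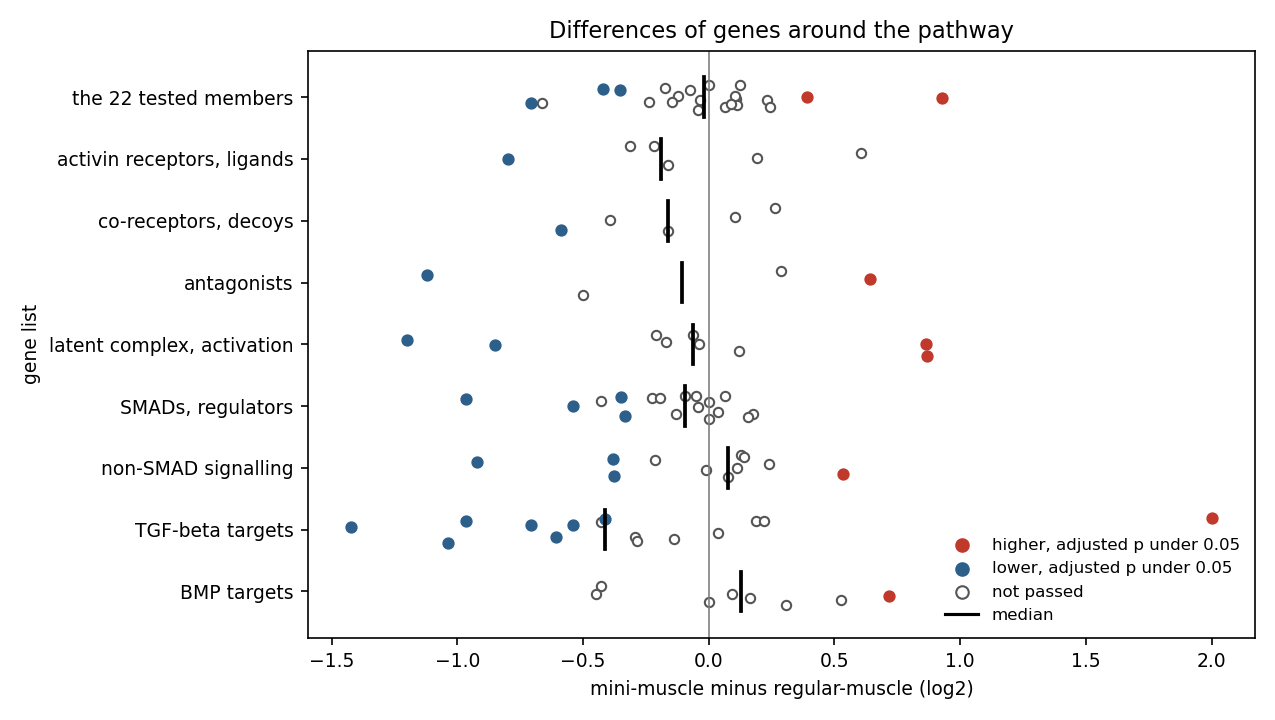
Difference between mini-muscle and regular-muscle arrays (log2, horizontal axis) for the 22 tested members and for the tested genes of 8 pathway lists, red or blue where the adjusted p was under 0.05 and higher or lower in mini-muscle, with a bar at each list's median. The TGF-beta targets have the lowest median (-0.41). Junb, at 2.0 their single called increase, entered the test only through the mini-muscle group.

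Markers of several cell types moved with the groups, where 26.7% of all genes tested were called. Of the tested markers, 50% were called for muscle fibre, 50% for fibroblast, 100% for tendon and 60% for macrophage. For pericyte and smooth muscle it was 16.7% and for endothelial markers 11.1%. The 8 muscle fibre markers were all above the dim limit, at summed intensities of 999000 to 1170000 in mini-muscle and 1120000 to 1350000 in regular muscle, with 1 higher (Des, 0.85) and 3 lower (among them Pvalb, -0.41, and Mylpf, -0.33). The other 4 did not pass: Acta1 (-0.083, adjusted p = 0.46), Ckm (-0.14, adjusted p = 0.15), Tnni2 (-0.17, adjusted p = 0.078) and Atp2a1 (-0.16, adjusted p = 0.087). Of 8 fibroblast markers, 4 were lower and 0 higher (Col1a1 above, Dcn above and Dpt, -0.94, with the smallest adjusted p), and their summed intensity was 25100 to 41700 in mini-muscle and 40600 to 64800 in regular muscle. Another 4 fibroblast markers did not pass: Pi16 (-0.64, adjusted p = 0.089), Pdgfra (-0.45, adjusted p = 0.10), Col6a3 (-0.22, adjusted p = 0.23) and Lum (0.074, adjusted p = 0.83). All 4 tested tendon markers were lower (Fmod, -1.57, Comp, -0.86, and Thbs4, -0.74, with the smallest adjusted p), at sums of 6320 to 12200 in mini-muscle and 16900 to 19900 in regular muscle, while Scx and Mkx were dim. Of 5 macrophage markers 3 were lower (Mrc1, -0.77, Csf1r, -0.44, and Lyz2, -0.64), at sums of 4100 to 5920 in mini-muscle and 5200 to 8360 in regular muscle, while Cd68 and Cd163 were dim. In bulk muscle fewer cells of a type and less RNA per cell cannot be told apart, and the part of these cell types in the differences of Tgfbr3, Bmpr1a, Ltbp1 and Tgfb3 was not tested. Of 6 pericyte and smooth muscle markers 1 was higher (Rgs5, 0.23) and 0 lower. The calls of Rgs5, Csf1r and Lyz2 were each lost in several alternatives. None of 3 tested satellite cell markers, 2 nerve sheath markers and 1 adipocyte marker was called. The satellite cell marker Myf5, named after its values were seen, was just below the dim limit at a mean of 8.41. Without the dim filter it was higher in mini-muscle (0.96, adjusted p = 0.018), at 8.57 to 9.53 on mini-muscle arrays and 7.41 to 8.35 on regular-muscle arrays, without overlap.

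Array medians lay between 211.9 and 275.2 intensity units. Pearson correlations across genes were 0.954 to 0.974 between arrays of a group and 0.924 to 0.948 between arrays of different groups, and no arrays held identical values. Arrays have no sequencing depth, and their number limits the precision.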

How the data were processed

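Total RNA of 12 gastrocnemius samples was labelled by the Affymetrix procedure, per the labels' protocols. The authors deposited a linear intensity per probe set, and the submitters' processing notes name MAS5, with version and settings not given in the sources used here. Leaving out the lowest and highest 2%, every array's deposited intensities averaged 800.0, so all arrays share that scale. The deposited intensities were taken to log2 with no offset and no further normalization. Genes were named from the platform annotation, using probe sets of a single gene (34958 of 45101; 932 name several genes and 9211 none). The brightest probe set per gene was kept, genes below the median gene mean were left out of the test, and groups were compared with limma 3.58.1 in R 4.3.3 (lmFit, eBayes with an intensity trend, two-sided, Benjamini-Hochberg over 9097 genes). Pathway and marker lists come from textbook knowledge and were described by counts and medians only. Called members and fixed core members are given in full, and called genes of a list by smallest adjusted p, up to 4 per pathway list and 3 per marker list. Members and lists were chosen with earlier results of these data known. The fit was tested on simulated data: with 200 of 9097 genes altered it called 146, of which 5 were unaltered, and found 58% of the 1.5-fold and 83% of the 2-fold alterations. That is a smaller share of genes than the 26.7% called in the data, so these rates need not hold for them. Each array is another animal, so p-values weigh a difference against the spread between animals of the same line. Each group is a single line, so the p-values carry no spread between lines. Promoter windows are the RefSeq table's 250 bases before each start, trimmed to the last 150. Alternatives were other scalings, probe set rules, dim filters, an offset of 64, no intensity trend, and leaving out each array.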

Additional observations from a re-analysis of the deposited data

Results flagged for a closer look

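Each group of 6 arrays was screened, for each of the 35 members, for a highest or lowest array that stood apart from the rest by more than Dixon's 95% limit. Of 70 groups 3 held such an array, and chance gives about 1 in 20. Bmp4 was at 8.04 on regular-muscle replicate 6, with the other regular-muscle arrays at 9.08 to 9.40. Gdf2, the circulating ligand BMP9, was at 5.00 on mini-muscle replicate 2, with the other mini-muscle arrays at 7.71 to 8.86. Bmp8b, a ligand known from brown fat, was at 5.87 on regular-muscle replicate 5, with the other regular-muscle arrays at 7.32 to 7.86. Gdf2 and Bmp8b are below the dim limit.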

How the results depend on the processing

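No paired analysis was possible because the labels give no replicate numbers shared between the groups. Over 20 alternatives, Ltbp1 and Tgfb3 kept their direction and call wherever they were tested, Ltbp1 in 18 and Tgfb3 in 20 (adjusted p up to 0.0020 and 0.046), Tgfbr3 kept its direction and lost its call with the mean of all probe sets (adjusted p = 0.083), Bmpr1a reversed there (0.053), and Bmp2k kept its direction and lost its call in 11 alternatives (adjusted p up to 0.15). The mean of all probe sets could not challenge the first pair. Tgfb3 has only 1 probe set, so its values stayed the same, and Ltbp1 was not tested there. The mean of all probe sets called 1543 genes, against 2426, with 1 member higher and 1 lower; the brightest 33.3% of genes, in which 13 members were tested, had 1 higher. The mean of all probe sets also turned the direction of the uncalled Tgfbr1 (0.11), Bmpr2 (0.14), Acvrl1 (0.22) and Ltbp3 (-0.0078), of Tgfbi, which then passed (-0.59), and of Tab1 (-0.18), Map3k7 (0.087) and Rgs5 (-0.11). Bmpr2 gave 0.0020 with quantile normalization and Bmp6 0.010 with median centring. Leaving out 1 array moved the members called higher between 2 and 3, those called lower between 2 and 3, the genes called between 2153 and 2396 and the median difference of members between -0.04 and 0.05. It moved the uncalled Bmp5 between -0.032 and 0.11, Bmp6 between -0.082 and 0.089, Gdf9 between -0.091 and 0.28, Eng between -0.040 and 0.19, Ltbp4 between -0.17 and 0.066, Tgfbi between -0.010 and 0.16 and Bmpr2 between -0.087 and 5.0e-04, and Id3 between -0.032 and 0.21. Of 33 called list genes named, 17 kept call and direction in all alternatives that tested them. The median difference of all genes was 0.01 with quantile normalization and 0.04 with median centring. The causes were not tested.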

Other observations

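A second probe set of Bmp15, an oocyte growth factor on the X chromosome, had the largest difference of the family's 77 probe sets. It averaged 6.58 in mini-muscle and 4.32 in regular muscle (2.25, SE 0.74, adjusted p = 0.069 over all single-gene probe sets), far below the dim limit, and was chosen after its values were seen. The probe set used for Bmp15 gave 0.66 (SE 0.68).

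The 5 called members lay on chromosomes 5 (Tgfbr3 and Bmp2k), 12 (Tgfb3), 14 (Bmpr1a) and 17 (Ltbp1).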
